A study of Saccharomyces cerevisiae with 18 samples.

Results

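INO1 and 9 other genes of inositol and phospholipid synthesis in budding yeast were followed across 6 strains that differ in the histone H2B ubiquitination enzymes Rad6 and Bre1. The 10 genes, of 5746 in the count table, were taken by name. INO1 was chosen because its level was already known to be lower in rad6Δ, bre1Δ and P43L cells in these data, so its values are given as a description with no test. The other 9 genes (ITR1, OPI3, CHO1, CHO2, PSD1, INO2, INO4, OPI1 and HNM1) were chosen by their role in the pathway. That choice too was made with earlier results of these data known. All 10 had enough reads to be tested, with 85 to 22794 reads per gene and library.

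Rad6 is a ubiquitin-conjugating enzyme, and Bre1 is the ubiquitin ligase that works with it to attach ubiquitin to histone H2B. Poly(A) RNA was sequenced from 3 independent cultures of each strain, in synthetic medium without tryptophan, held at 30 °C. Whether the medium held inositol is not given in the sources used here. All strains were labelled mating type a and shared trp1Δ and mutant alleles of ura3, leu2 and his3. The rad6Δ strain carried rad6Δ::KanMX and the empty CEN TRP plasmid pRS314. The bre1Δ strain carried bre1Δ::KanMX and pRS314, and kept its own chromosomal RAD6. The P43L, P47T and E49K strains carried rad6Δ::KanMX and a CEN TRP plasmid with Rad6-3V5 in which 1 residue was replaced. The WT strain carried the same deletion and a plasmid with unchanged Rad6-3V5. Between bre1Δ and WT, the loss of BRE1 and the untagged chromosomal RAD6 cannot be told apart.

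The 18 libraries held 5065845 to 11396251 counted reads, which are given as CPM, the reads of a gene scaled to a common library size. RAD6 lay at 3.75 to 4.77 CPM in rad6Δ libraries, against 143 to 157 CPM in WT libraries. BRE1 lay at 1.25 to 2.12 CPM in bre1Δ libraries and 136 to 147 CPM in WT libraries. Among the point mutants RAD6 lay at 111 to 145 CPM in P43L, at 147 to 177 CPM in P47T, and in E49K at 167 to 188 CPM, above every WT library. In bre1Δ it lay at 93.4 to 106 CPM, below every WT library. The alpha-factor gene MF(ALPHA)1 lay at 1120 to 1960 CPM and the summed a-factor genes at 0.14 to 3.31 CPM in the 18 libraries, which goes against the labelled mating type a in every strain. The libraries P43L replicate 2, bre1Δ replicate 3 and P47T replicate 3 lay apart from their own replicates on the second principal component, and values without them are given where they bear on a result. CPM values are relative to all mRNA of a library, and fewer cells that express a gene cannot be told apart from less RNA per cell.

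In yeast the genes of phospholipid synthesis are switched on together when inositol is scarce. The basic helix-loop-helix proteins Ino2 and Ino4 bind as a pair to an upstream element with the core CATGTG, and the repressor Opi1 acts against them, leaving its membrane anchor when phosphatidic acid is used up. INO1 encodes inositol-3-phosphate synthase, which turns glucose 6-phosphate into the precursor of inositol, and is the textbook target of this system. It is also a common reporter for chromatin and transcription factors.

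The core was searched in the 500 bases before each start codon, on both strands, because it is the element through which this pathway is known to be regulated. It was found upstream of 9 of the 10 genes and upstream of 789 of 6000 nuclear protein-coding genes, which is 13.2%. At least 2 matches lay upstream of 6 of the 10 genes and of 82 of the 6000, which is 1.37%. Each strand was counted in both sets, so the overlapping matches of INO2 on opposite strands count as 2. OPI1 had none, and these letters are not in its window. A longer form, the core followed by AAAT, was found upstream of 0 of the 10 and 4 of the 6000 genes (0.0667%). The sequences are 30 bases from the RefSeq genome, build R64, read 5′ to 3′ on the strand that holds the core, with the core in capitals. Both matches of INO1 are shown, and for every other gene the match whose following bases are closest to AAAT.
INO1, chrX:136159-136188, minus strand: ggctaaatgcggCATGTGaaaagtattgtc
INO1, chrX:136094-136123, plus strand: ctttctctgctcCATGTGaattaaataagt
ITR1, chrIV:1445671-1445700, minus strand: ccttccccaccgCATGTGaaaaaagctcga
OPI3, chrX:573130-573159, minus strand: tcaatgagagtgCATGTGgaaagttgcacc
CHO1, chrV:208616-208645, plus strand: tttagatgggtcCATGTGaaagctcaaagg
CHO2, chrVII:802092-802121, plus strand: ggatctccgacaCATGTGaatttataagta
PSD1, chrXIV:317894-317923, plus strand: ctggttaccctgCATGTGatatgtgattac
INO2, chrIV:699595-699624, minus strand: aagtacaacacaCATGTGaatttttttcag
INO4, chrXV:111990-112019, plus strand: aggtgagaaaaaCATGTGaatattttgttt
HNM1, chrVII:364166-364195, plus strand: ataggttctgcgCATGTGaaaaaaaagaga

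In INO1 the first bases of the 2 cores lie 243 and 178 bases before the start codon, on opposite strands. ITR1 and CHO2 had 3 matches each, INO1, OPI3, PSD1 and INO2 had 2 each, and CHO1, INO4 and HNM1 had 1 each. In CHO2 and INO2, 2 of the matches overlap on opposite strands. The OPI3 match shown lies inside the neighbouring gene MOG1, and a further ITR1 match, at -392 from the start codon, lies inside SEC20. The remaining matches lie in no annotated gene.

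**Figure D1:**
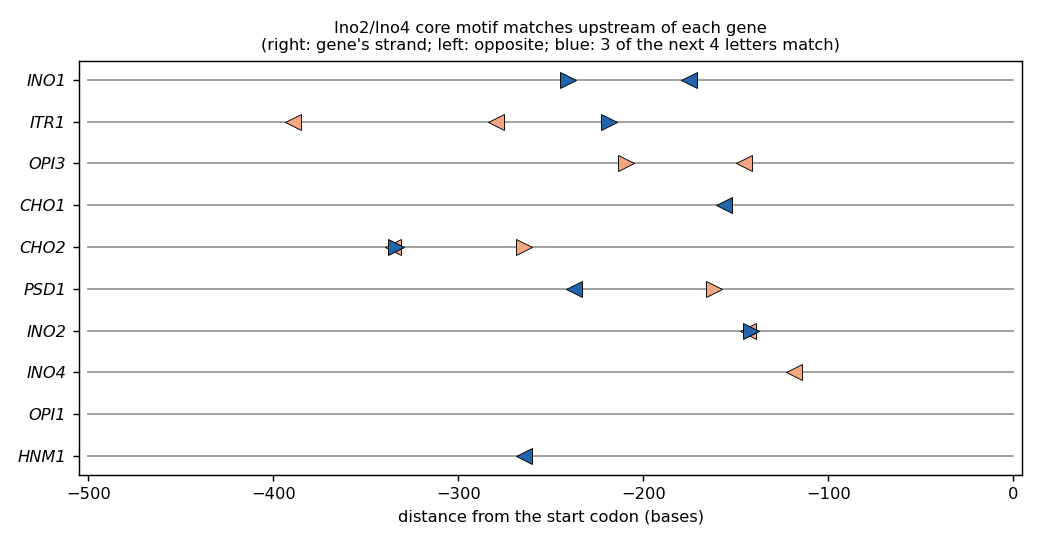
Matches to the core CATGTG (triangles, pointing right on the gene's strand and left on the opposite strand) in the 500 bases before each start codon, by distance in bases. Blue marks a core with 3 of the next 4 bases equal to AAAT; the 2 INO1 matches lie at -243 and -178, and OPI1 has none.

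INO1 (YJL153C) lies on chromosome X, bases 134332 to 135933, minus strand, as 1 exon with no overlapping annotated gene. INO1 stood at 98.2, 85.7 and 80.1 CPM in rad6Δ libraries and at 288, 312.5 and 328 CPM in bre1Δ libraries, against 978, 936 and 952 CPM in WT libraries. It stood at 442, 357 and 443 CPM in P43L, at 886, 840 and 724.5 CPM in P47T, and at 899, 864 and 946 CPM in E49K libraries. From low to high the strains ran rad6Δ, bre1Δ, P43L, P47T, E49K and WT. The libraries of rad6Δ, bre1Δ and P43L overlapped with no other strain, those of P47T overlapped with E49K but not with WT, and those of E49K overlapped with both.

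Mean INO1 levels were 88.0 ± 9.26 CPM in rad6Δ cells, 310 ± 20.1 CPM in bre1Δ cells and 414 ± 49.1 CPM in P43L cells, against 955 ± 21.4 CPM in WT cells (SD, n = 3 each). The P47T and E49K means were 817 ± 83.1 and 903 ± 41.0 CPM. Set against the WT mean, rad6Δ had 9.21%, bre1Δ had 32.4%, P43L had 43.3%, P47T had 85.5% and E49K had 94.5%. The log2 fold change over WT was -3.44 ± 0.107 in rad6Δ (SE here and below), -1.63 ± 0.099 in bre1Δ and -1.21 ± 0.098 in P43L. It was -0.23 ± 0.096 in P47T and -0.08 ± 0.096 in E49K. All 5 of these comparisons share the WT libraries. Without P43L replicate 2, the lowest of its strain, the P43L change was -1.10. It was -1.67 in bre1Δ without replicate 3, -0.15 in P47T without replicate 3, and -0.05 in E49K without replicate 2, so that leaving out 1 library moved these small P47T and E49K values by over 1.5 times.

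Among the 5630 genes tested, the INO1 change was the 4th lowest in rad6Δ, the 2nd lowest in bre1Δ and the 6th lowest in P43L, and ranked 1102 in P47T and 2182 in E49K, counted from the lowest. INO1 was chosen for its falls in rad6Δ, bre1Δ and P43L, so its ranks there are a description and no separate support. Between the deletions, INO1 was lower in rad6Δ than in bre1Δ by a log2 fold change of -1.81 ± 0.102. Relative to rad6Δ it was higher in all 3 point mutants, by 2.23 ± 0.103 in P43L, 3.21 ± 0.106 in P47T and 3.36 ± 0.107 in E49K. Per kilobase of gene, INO1 was the 4th highest of the 10 genes in WT cells, at 596 CPM per kb, after ITR1 at 1208, OPI3 at 911 and CHO1 at 820. In rad6Δ cells it was the 8th, at 54.9 CPM per kb.

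**Figure D2:**
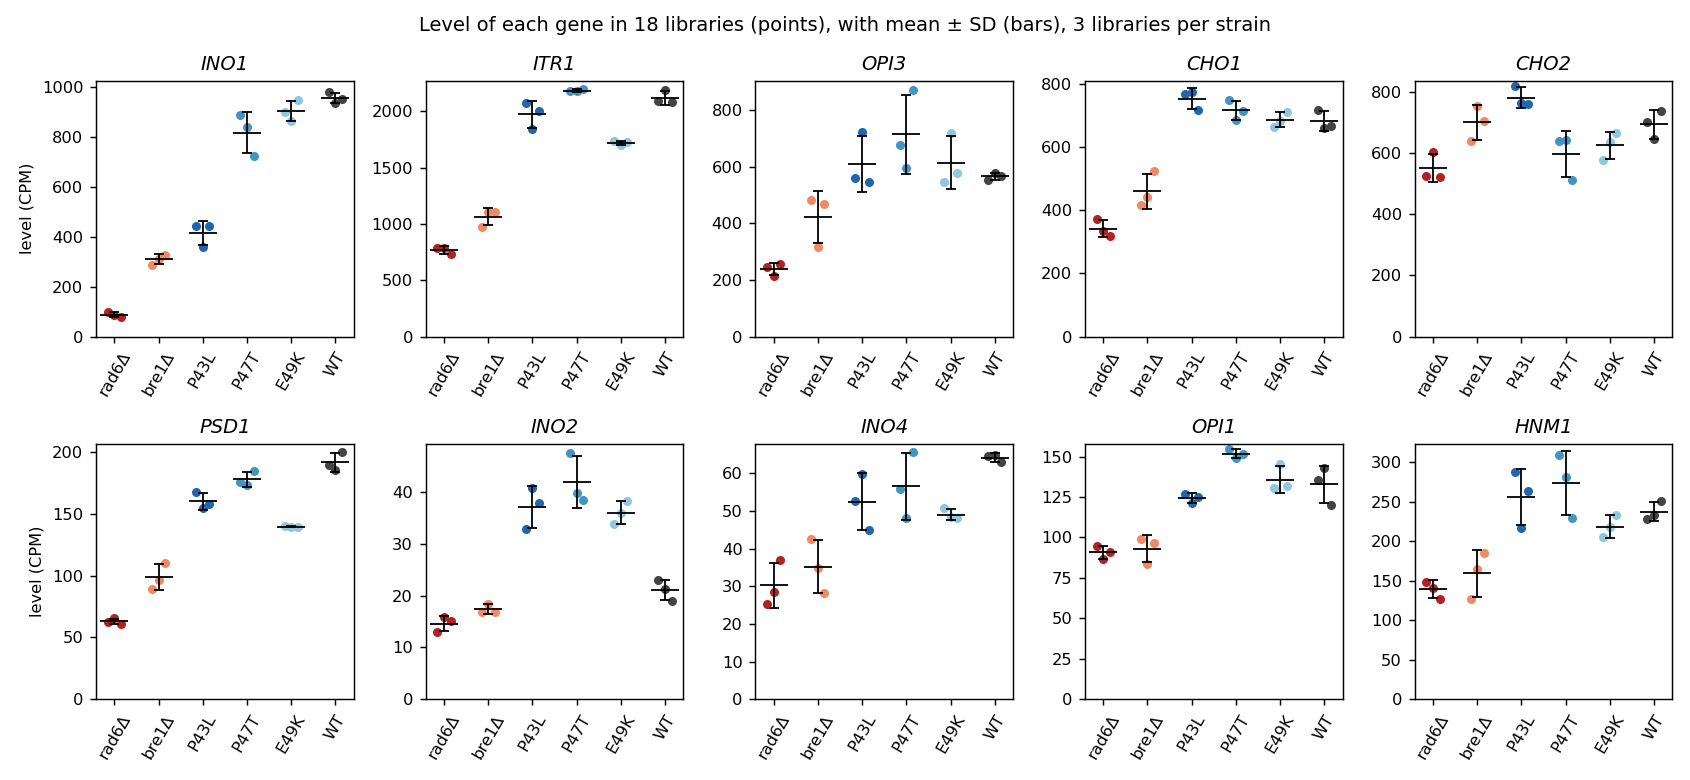
Level of the 10 genes (CPM) in the 18 libraries, grouped by strain; points are libraries, long bars the mean of 3 and short bars ± 1 SD. INO1 is near 88.0 CPM in rad6Δ and 955 CPM in WT, and INO2 is higher in P43L, P47T and E49K than in WT in every library.

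The genes bordering INO1 were examined by position. VPS35 (a subunit of the retromer that sorts vacuolar receptors, 396 bases away) and SNA3 (a vacuolar membrane protein, 438 bases away) passed the test in none of the 5 comparisons with WT. Their log2 fold changes ran from -0.06 to 0.14 for VPS35 and from -0.15 to 0.09 for SNA3. FBP26 (a fructose-2,6-bisphosphatase, 3688 bases away) fell in bre1Δ (-0.28, adjusted p = 0.004), in P47T (-0.49, adjusted p = 8.38e-05) and in E49K (-0.25, adjusted p = 0.0105) by edgeR's quasi-likelihood test with Benjamini-Hochberg adjustment. In rad6Δ its value was -0.16 (adjusted p = 0.072), and it passed without WT replicate 1 (-0.23, adjusted p = 0.0233) and with those strains alone (-0.17, adjusted p = 0.0485). The E49K call was lost without WT replicate 3 or E49K replicate 2 (adjusted p from 0.00794 to 0.0719 as each library was left out). DAS1, 1445 bases away, fell in P47T (-0.38, adjusted p = 0.00686), a call lost without P47T replicate 1 (adjusted p = 0.0511).

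Of the 9 other genes, 9 fell and 0 rose in rad6Δ against WT at an adjusted p under 0.05. Across all genes 49.7% passed this test, 24.8% in the downward direction. The median log2 fold change of the 9 was -0.995, and that of all genes -0.003. In bre1Δ against WT, 7 of the 9 fell and 0 rose, where 44.4% of all genes passed and 22.1% fell, and the medians were -0.57 for the 9 and 0.001 for all genes. In P43L 1 of the 9 rose and 1 fell, with 12.1% of all genes passing. In P47T 1 rose and 0 fell, with 27.9% of all genes passing. In E49K 1 rose and 3 fell, with 31.3% of all genes passing. The gene that rose in each of the 3 point mutants was INO2. Without the library that lay apart, 7 of the 9 genes passed in bre1Δ, 1 in P43L and 1 in P47T. No overlap with the WT libraries was seen for 9 of the 9 genes in rad6Δ and 8 in bre1Δ. It was seen for 5 of the 9 in P43L, 5 in P47T and 4 in E49K. Over all genes the shares without overlap were 60%, 50.5%, 33.9%, 43.4% and 49.9% in the same order. Where a gene is said below to lie apart from every WT library, these shares are the background.

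**Figure D3:**
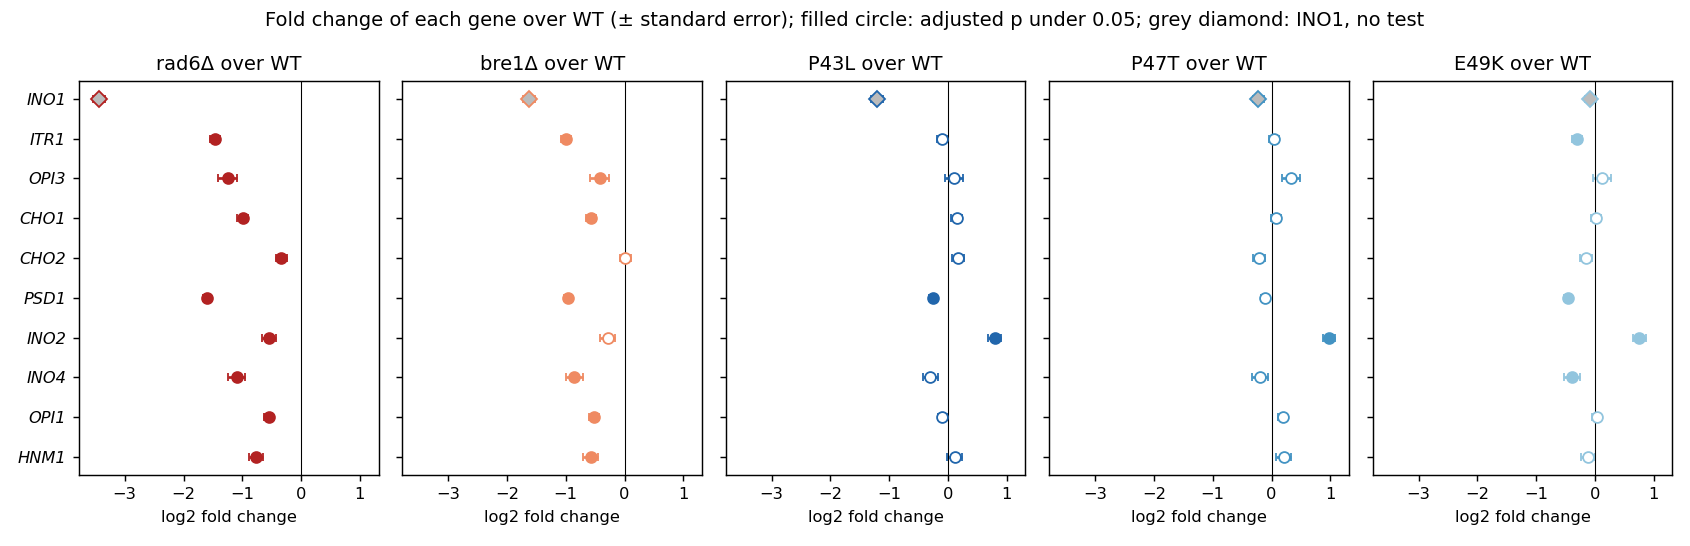
Log2 fold change over WT (x axis) of the 10 genes in each strain, with bars of ± 1 standard error. Filled circles passed the test at an adjusted p under 0.05, open circles did not, and grey diamonds mark INO1, which was not tested. The 9 tested genes lie left of 0 in rad6Δ, and INO2 lies right of 0 in P43L, P47T and E49K.

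ITR1 (YDR497C, chromosome IV, 1443713 to 1445467, minus strand) encodes the major inositol transporter of the plasma membrane. It stood at 790, 789.5 and 729 CPM in rad6Δ and at 976, 1109 and 1102 CPM in bre1Δ, against 2087, 2190 and 2081 CPM in WT. In the point mutants it stood at 2071, 1839 and 2006 CPM in P43L, 2176, 2176 and 2195 CPM in P47T and 1733, 1701 and 1724 CPM in E49K. Both deletions and E49K lay below every WT library, and so did P43L by a small margin, while P47T overlapped with the WT range. ITR1 fell in rad6Δ (-1.46 ± 0.085, adjusted p = 2.82e-11), in bre1Δ (-0.997 ± 0.084, adjusted p = 1.44e-08) and in E49K (-0.30 ± 0.084, adjusted p = 0.00958). The values in P43L (-0.10, adjusted p = 0.414) and P47T (0.04, adjusted p = 0.735) did not pass.

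The synthase and the transporter supply inositol by different routes, and their CPM ratio was taken within each library as a description. INO1 over ITR1 ran from 0.109 to 0.124 in rad6Δ, 0.282 to 0.298 in bre1Δ, 0.194 to 0.221 in P43L, 0.330 to 0.407 in P47T, 0.508 to 0.549 in E49K and 0.427 to 0.469 in WT. No strain overlapped with another. P43L libraries had a lower ratio than bre1Δ libraries although their INO1 level was higher, and E49K libraries had a higher ratio than WT libraries.

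Phosphatidylserine is made by Cho1, decarboxylated to phosphatidylethanolamine by the mitochondrial enzyme Psd1, and methylated to phosphatidylcholine by Cho2 and then Opi3. PSD1 (YNL169C, chromosome XIV, 316169 to 317671, minus strand) stood at 62.3, 65.5 and 61.0 CPM in rad6Δ and 89.0, 96.8 and 110 CPM in bre1Δ, against 189.5, 185 and 200 CPM in WT. It stood at 168, 155 and 158 CPM in P43L, 176, 173 and 184 CPM in P47T and 139.8, 139.3 and 139.1 CPM in E49K. Every mutant library lay below every WT library. PSD1 fell in rad6Δ (-1.60 ± 0.073, adjusted p = 4.6e-13), in bre1Δ (-0.96 ± 0.072, adjusted p = 2.51e-09) and in E49K (-0.46 ± 0.07, adjusted p = 9.13e-05). It also fell in P43L (-0.26 ± 0.07, adjusted p = 0.0226), but that call was lost without any 1 of the WT libraries or P43L replicates 2 or 3 (adjusted p 0.0505 to 0.101). The value in P47T (-0.11, adjusted p = 0.27) did not pass.

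CHO1 (YER026C, chromosome V, 207644 to 208474, minus strand) stood at 373, 334 and 319 CPM in rad6Δ and 417, 441 and 523 CPM in bre1Δ, against 717, 660 and 666.5 CPM in WT. It stood at 769, 774 and 717 CPM in P43L, 747, 686 and 713 CPM in P47T and 664, 683 and 711 CPM in E49K. Both deletions lay below every other library, and the point mutants lay within or above the WT range. CHO1 fell in rad6Δ (-0.995 ± 0.088, adjusted p = 1.02e-08) and in bre1Δ (-0.57 ± 0.087, adjusted p = 3.13e-05). In the point mutants its changes were 0.14, 0.07 and 0.01 in P43L, P47T and E49K, and none passed (adjusted p = 0.266, 0.571 and 0.944).

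OPI3 (YJR073C, chromosome X, 572315 to 572935, minus strand) stood at 245, 213 and 256 CPM in rad6Δ and 482, 318 and 467 CPM in bre1Δ, against 553, 578 and 567 CPM in WT. In the point mutants it stood at 561, 721 and 545 CPM in P43L, 676, 594 and 869 CPM in P47T and 547, 720 and 575.5 CPM in E49K. Both deletions lay below WT, and P43L and E49K overlapped with WT while P47T lay above it. OPI3 fell in rad6Δ (-1.25 ± 0.16, adjusted p = 4.13e-06). Its fall in bre1Δ (-0.42 ± 0.158, adjusted p = 0.0365) was lost without any 1 of the WT libraries or bre1Δ replicate 2 (adjusted p 0.0583 to 0.166). The value in P47T (0.33 ± 0.157, adjusted p = 0.12) did not pass, nor did those in P43L (0.11, adjusted p = 0.684) and E49K (0.12, adjusted p = 0.599).

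CHO2 (YGR157W, chromosome VII, 802440 to 805049, plus strand) had the smallest change of the 9 genes in rad6Δ, with 526, 602 and 521 CPM in rad6Δ against 699.5, 644 and 738 CPM in WT. It fell there by 0.34 ± 0.097 on the log2 scale (adjusted p = 0.00678). In bre1Δ it ranged from 640 to 753 CPM and did not pass (0.01 ± 0.097, adjusted p = 0.931). It ranged from 759 to 819 CPM in P43L, 511 to 643 CPM in P47T and 577 to 663 CPM in E49K, and none of these differences from WT passed (0.17, -0.21 and -0.15 on the log2 scale, adjusted p = 0.243, 0.104 and 0.249).

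HNM1 (YGL077C, chromosome VII, 362225 to 363916, minus strand) encodes the choline transporter, which feeds the parallel route to phosphatidylcholine. It ranged from 127 to 149 CPM in rad6Δ and 127 to 186 CPM in bre1Δ, against 228 to 251 CPM in WT. It fell in rad6Δ (-0.77 ± 0.125, adjusted p = 4.72e-05) and bre1Δ (-0.58 ± 0.126, adjusted p = 0.00109). It ranged from 217 to 287 CPM in P43L, 229 to 309 CPM in P47T and 205 to 233 CPM in E49K, all overlapping with WT, with adjusted p from 0.222 to 0.568.

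The regulators of the pathway did not move as one. INO2 (YDR123C, chromosome IV, 698554 to 699468, minus strand), the activator subunit that carries the activation domains, stood at 12.9, 15.8 and 15.1 CPM in rad6Δ and 16.8, 18.5 and 16.8 CPM in bre1Δ, against 23.0, 21.3 and 19.0 CPM in WT. It stood at 32.7, 40.7 and 37.8 CPM in P43L, 47.5, 39.7 and 38.4 CPM in P47T and 33.9, 36.0 and 38.2 CPM in E49K. Every point mutant library lay above every WT library, and every deletion library lay below. With 85 to 498 reads per library, INO2 was the least abundant of the 10 genes.

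INO2 rose in P43L (0.79 ± 0.109, adjusted p = 0.000139), P47T (0.98 ± 0.107, adjusted p = 7.52e-06) and E49K (0.76 ± 0.107, adjusted p = 3.95e-05). The means were 176%, 198% and 171% of the WT mean. It fell in rad6Δ (-0.54 ± 0.119, adjusted p = 0.000771), and the value in bre1Δ (-0.29 ± 0.121, adjusted p = 0.0562) did not pass. Without WT replicate 3 the bre1Δ value did pass (adjusted p = 0.0364). The P43L cells thus had a higher INO2 level and a lower INO1 level than WT cells.

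INO4 (YOL108C, chromosome XV, 111431 to 111886, minus strand) encodes the partner of Ino2. It stood at 25.3, 28.4 and 36.9 CPM in rad6Δ and 42.5, 34.99 and 28.2 CPM in bre1Δ, against 64.7, 65.0 and 62.9 CPM in WT. It stood at 52.6, 59.9 and 44.9 CPM in P43L, 55.8, 48.1 and 65.8 CPM in P47T and 50.7, 48.3 and 48.1 CPM in E49K. Only 1 mutant library, P47T replicate 3, reached the WT range. INO4 fell in rad6Δ (-1.10 ± 0.141, adjusted p = 2.82e-06) and bre1Δ (-0.85 ± 0.142, adjusted p = 9.13e-05). Its fall in E49K (-0.39 ± 0.134, adjusted p = 0.0317) was lost without any 1 of the 6 libraries compared (adjusted p 0.0532 to 0.0877). The values in P43L (-0.30 ± 0.135, adjusted p = 0.141) and P47T (-0.19, adjusted p = 0.308) did not pass.

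OPI1 (YHL020C, chromosome VIII, 66242 to 67456, minus strand), the repressor, ranged from 86.8 to 94.8 CPM in rad6Δ and 83.8 to 99.1 CPM in bre1Δ, against 120 to 143 CPM in WT. It fell in rad6Δ (-0.55 ± 0.076, adjusted p = 4.36e-06) and bre1Δ (-0.52 ± 0.077, adjusted p = 2.11e-05). It ranged from 121 to 127 CPM in P43L, 149 to 154 CPM in P47T and 131 to 145 CPM in E49K. The P47T libraries lay above WT, with a change of 0.19 that did not pass (adjusted p = 0.0659), except without WT replicate 2 (adjusted p = 0.0448). The changes in P43L (-0.10) and E49K (0.03) did not pass (adjusted p = 0.379 and 0.807).

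Between the deletions, 5 of the 9 genes fell and 0 rose in rad6Δ against bre1Δ, where 20.8% of all genes passed, 11.9% downward. They were OPI3 (-0.83, adjusted p = 0.00125), PSD1 (-0.64, adjusted p = 2.98e-06), ITR1 (-0.47, adjusted p = 0.000472), CHO1 (-0.43, adjusted p = 0.0014) and CHO2 (-0.35, adjusted p = 0.014), all transporters or enzymes. The CHO2 call was lost without rad6Δ replicate 1 or 3 or bre1Δ replicate 2 (adjusted p 0.00753 to 0.0684 as each library was left out). The 3 regulators did not pass: INO2 differed by -0.25, INO4 by -0.24 and OPI1 by -0.03 (adjusted p = 0.169, 0.267 and 0.798). HNM1 did not pass either (-0.19, adjusted p = 0.309).

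Relative to rad6Δ, which lacks Rad6 altogether, 9 of the 9 genes rose in P43L, with 49.1% of all genes passing, 23.9% upward. In P47T 8 of the 9 rose, with 52.3% of all genes passing, 25.9% upward. In E49K 8 of the 9 rose, with 36.9% passing, 18.4% upward. The 3 comparisons share the rad6Δ libraries, which also stand in the comparison of rad6Δ with WT. CHO2 was the gene that did not pass in P47T (0.12, adjusted p = 0.305) and E49K (0.19, adjusted p = 0.136). With those strains alone in the fit, CHO2 did pass in E49K (0.207, adjusted p = 0.0421). INO2 rose by 1.34 ± 0.113 in P43L, 1.52 ± 0.111 in P47T and 1.30 ± 0.111 in E49K. PSD1 rose by 1.35, 1.496 and 1.15 in P43L, P47T and E49K, and OPI3 by 1.36, 1.58 and 1.37.

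The 10 genes also differed in how closely their levels followed INO1. Over the 6 strain means of log2 CPM, which share libraries with every value above, Pearson's r with INO1 was 0.929 for OPI3, 0.922 for PSD1, 0.903 for ITR1, 0.895 for INO4, 0.889 for CHO1, 0.872 for OPI1 and 0.829 for HNM1. It was 0.689 for INO2 and 0.347 for CHO2. Within the 10 genes the closest pair was ITR1 and PSD1, with r = 0.986 over the 18 libraries. The 5 genes closest to INO1 were sought among 843 genes with a symbol whose strain means had an SD of at least 0.3. They were SPO11 (r = 0.982, which makes the breaks of meiotic recombination), LYS21 (0.977, homocitrate synthase) and KSS1 (0.975, a filamentous growth MAP kinase). ERG20 (0.974, farnesyl pyrophosphate synthase) and ARG3 (0.968, ornithine carbamoyltransferase) came next. Over the 18 libraries the r of these 5 genes ran from 0.896 for SPO11 to 0.969 for ERG20. SPO11 levels were low, with strain means from 5.68 CPM in rad6Δ to 15.3 CPM in E49K. With no minimum SD, TOS8 and ISY1 took the place of ERG20 and ARG3.

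Around the 10 genes, 5 lists of 74 further genes were read by their counts. Of the 13 other phospholipid enzymes, 11 fell and 1 rose in rad6Δ, with a median log2 fold change of -0.44, and 7 fell and 1 rose in bre1Δ, with a median of -0.33. Among all genes 49.7% passed in rad6Δ, 24.8% downward, and 44.4% passed in bre1Δ, 22.1% downward. The medians of all genes were -0.003 and 0.001. CPT1 (cholinephosphotransferase) fell in rad6Δ to 97.8 CPM against 161 CPM in WT (-0.72 ± 0.083, adjusted p = 4.97e-07), and also fell in bre1Δ (-0.37, adjusted p = 0.00137). EPT1, its ethanolamine counterpart, fell in rad6Δ (-0.69, adjusted p = 6.45e-07), and the bre1Δ value did not pass (-0.17, adjusted p = 0.091). EPT1 instead rose in P47T (0.30, adjusted p = 0.00726). Its values in P43L (-0.07, adjusted p = 0.599) and E49K (-0.01, adjusted p = 0.925) did not pass. PSD2, the second phosphatidylserine decarboxylase, fell in both deletions (-0.47 in rad6Δ and -0.53 in bre1Δ, adjusted p = 4.35e-05 and 2.56e-05). CKI1, choline kinase, fell in both (-0.42 and -0.29, adjusted p = 8.23e-05 and 0.00354). CKI1 instead rose in P43L (0.25, adjusted p = 0.0314) and E49K (0.19, adjusted p = 0.0447). Its P47T value did not pass (0.11, adjusted p = 0.291). The gene that rose in both deletions, named after its value was seen, was PIS1, which joins inositol to CDP-diacylglycerol. It had 267 CPM in rad6Δ and 275 CPM in bre1Δ, against 205 CPM in WT (0.38 and 0.42, adjusted p = 0.00803 and 0.00486). PIS1 rose in E49K (283 CPM, 0.47, adjusted p = 0.00391) and P47T (257 CPM, 0.33, adjusted p = 0.0344) as well. Its P43L value was similar but did not pass (258 CPM, 0.33, adjusted p = 0.0577).

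Of the 16 genes of fatty acid, phosphatidic acid and diacylglycerol metabolism, 7 fell and 1 rose in rad6Δ (median -0.19), where 49.7% of all genes passed. In bre1Δ 4 fell and 0 rose (median -0.14), a smaller share than the 44.4% of all genes. DPP1, a vacuolar phosphatase that removes phosphate from diacylglycerol pyrophosphate, fell in rad6Δ (-0.63, adjusted p = 1.86e-06) and bre1Δ (-0.34, adjusted p = 0.00219). SCT1, a glycerol 3-phosphate acyltransferase, fell in both (-0.51 and -0.37, adjusted p = 3.77e-06 and 0.000267). PAH1, the phosphatidate phosphatase that consumes phosphatidic acid, also fell in both (-0.42 and -0.37, adjusted p = 0.000127 and 0.000642). PAH1 fell in P47T (-0.205, adjusted p = 0.0472) and E49K (-0.22, adjusted p = 0.0303) as well. Its P43L value did not pass (0.03, adjusted p = 0.806). SLC1, a lysophosphatidic acid acyltransferase, fell in rad6Δ (-0.47, adjusted p = 3e-05) but did not pass in bre1Δ (-0.12, adjusted p = 0.223).

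Of the 18 genes of inositol uptake and use, 6 rose and 3 fell in rad6Δ (median 0.07), and 3 rose and 6 fell in bre1Δ (median 0.001), shares near the 49.7% and 44.4% of all genes that passed. VIP1, an inositol pyrophosphate synthase, rose to 369 CPM in rad6Δ and 290 CPM in bre1Δ, against 195 CPM in WT (0.92 ± 0.072 and 0.58 ± 0.072, adjusted p = 1.7e-09 and 2.77e-06). In E49K VIP1 rose too (277 CPM, 0.505, adjusted p = 3.95e-05). Its values in P43L (0.18, adjusted p = 0.0909) and P47T (-0.05, adjusted p = 0.633) did not pass. KCS1, the other inositol pyrophosphate synthase, fell in both (-0.56 and -0.32, adjusted p = 1.08e-06 and 0.000922). PLB3, a phospholipase B acting on phosphatidylinositol, fell in both (-0.61 and -0.47, adjusted p = 0.000118 and 0.00182). GDE1, a glycerophosphocholine phosphodiesterase, rose in rad6Δ (0.50, adjusted p = 3.38e-05) and did not pass in bre1Δ (0.13, adjusted p = 0.214).

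Of the 13 regulators and chromatin factors known to act at INO1, 5 fell and 3 rose in rad6Δ (median -0.12), and 5 fell and 2 rose in bre1Δ (median 0.007). Over all genes 49.7% passed in rad6Δ and 44.4% in bre1Δ. The 8 calls in rad6Δ became 5 without replicate 2 or without replicate 3. SNF1, the kinase of the glucose response, and SNF4, its activating subunit, fell in rad6Δ (-0.61 and -0.68, adjusted p = 2.9e-07 and 5.69e-08) and in bre1Δ (-0.29 and -0.45, adjusted p = 0.00164 and 2.24e-05). SNF1 fell in P47T (-0.23, adjusted p = 0.0146) and E49K (-0.26, adjusted p = 0.00659) as well. Its P43L value did not pass (-0.001, adjusted p = 0.991). SNF4 instead rose in P43L (0.245, adjusted p = 0.0212) and P47T (0.19, adjusted p = 0.038). Its E49K value did not pass (0.006, adjusted p = 0.956). ARP8, a subunit of the INO80 remodeller, rose in both (0.39 and 0.34, adjusted p = 0.000485 and 0.0024). SNF2, the SWI/SNF ATPase, rose in rad6Δ (0.32, adjusted p = 0.000908), and the bre1Δ value did not pass (0.17, adjusted p = 0.0664). SNF2 also rose in P43L (0.23, adjusted p = 0.0406). Its values in P47T (-0.07, adjusted p = 0.49) and E49K (0.15, adjusted p = 0.11) did not pass.

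The unfolded protein response is linked to INO1 in textbooks because endoplasmic reticulum stress and inositol starvation share a signal. Of its 14 genes, 4 rose and 4 fell in rad6Δ (median -0.002), and 4 rose and 5 fell in bre1Δ (median 0.10). The shares of all genes that passed were 49.7% in rad6Δ and 44.4% in bre1Δ. The 8 calls in rad6Δ became 5 without replicate 2, and the 9 in bre1Δ became 4 without WT replicate 2 and 3 without bre1Δ replicate 2. KAR2, the lumenal Hsp70, rose to 603 CPM in rad6Δ and 632 CPM in bre1Δ, against 413 CPM in WT (0.55 and 0.61, adjusted p = 0.000354 and 0.00017). KAR2 rose in P47T (0.38, adjusted p = 0.0154) and E49K (0.385, adjusted p = 0.0122) as well. Its P43L value did not pass (0.31, adjusted p = 0.0677). JEM1, a DnaJ-like chaperone, rose in rad6Δ (0.41, adjusted p = 0.00266). SIL1, the Kar2 exchange factor, and MPD1, a protein disulfide isomerase, fell in rad6Δ (-0.67 and -0.65, adjusted p = 1.88e-06 and 1.34e-05). SIL1 also fell in bre1Δ (-0.47, adjusted p = 0.000214). The bre1Δ calls for JEM1 (0.32, adjusted p = 0.0216) and MPD1 (-0.29, adjusted p = 0.0191) rested on single libraries. The JEM1 call was lost without WT replicate 2 or 3 or bre1Δ replicate 2 (adjusted p up to 0.12). The MPD1 call was lost without WT replicate 1 or bre1Δ replicate 2 (adjusted p up to 0.0894).

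Over the 74 genes together, 8 rose and 2 fell in P43L, 10 rose and 9 fell in P47T, and 9 rose and 15 fell in E49K. These counts moved with single libraries. The 10 calls in P43L became 23 without P43L replicate 2, 3 without P43L replicate 1 or 3 or WT replicate 3, and 4 without WT replicate 2. The 19 in P47T became 9 to 12 without any 1 library other than P47T replicate 3. The 24 in E49K became 9 to 15 without any 1 library other than E49K replicate 1. Of the 74 genes, 60.8% passed in rad6Δ, 50% passed in bre1Δ, 13.5% passed in P43L, 25.7% passed in P47T and 32.4% passed in E49K. Over all genes the shares were 49.7%, 44.4%, 12.1%, 27.9% and 31.3% in the same strains. All these shares come from the full fit. Shares of all genes with 1 library left out are not given, here or for the lists above. A shift of these genes with a library therefore cannot be told apart from a shift of all calls.

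**Figure D4:**
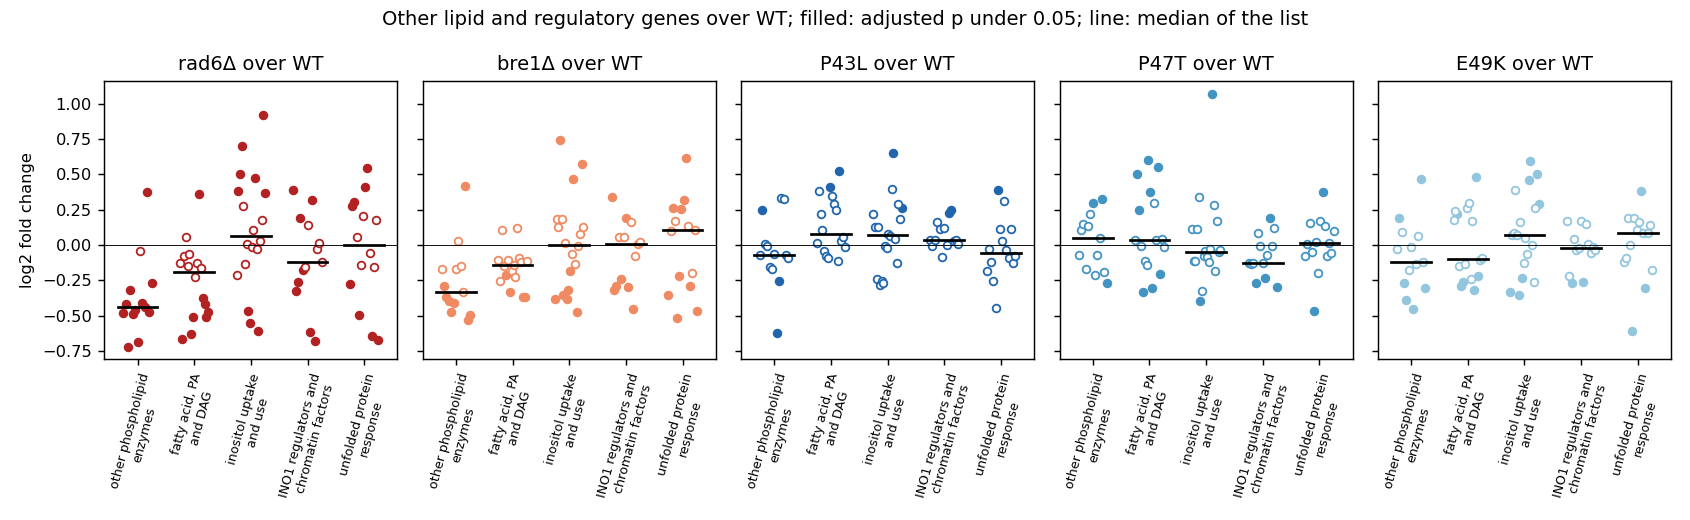
Log2 fold change over WT (y axis) of the 74 further genes in 5 lists, one panel per strain; filled points passed the test at an adjusted p under 0.05 and lines are list medians. The other phospholipid enzymes lie lowest in rad6Δ, with a median of -0.44, while the inositol uptake and use list has its median at 0.07.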

How the data were processed

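Stranded poly(A) RNA-seq libraries with single reads of 50 bases were made from 3 independent cultures of 6 strains, so p-values measure the spread between cultures. Per the submitters' processing notes, the tools named are cutadapt 1.16, STAR 2.6.1b, featureCounts 1.6.3 and DESeq2 1.20 and the builds are R64 and sacCer3. The sources used here do not give strand and multi-mapping settings. The authors deposited raw read counts per gene and a regularised log2 (rlog) table, whose values are shrunken and were used as an alternative. Every 50-base window of the 10 genes occurs once in the genome, and none overlaps another annotated gene.

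The deposited counts of 5746 genes were filtered with filterByExpr, which left 5630 genes and removed 116, and 3 lines without values were left out. Library sizes were scaled by TMM (factors 0.896 to 1.07). CPM uses these sizes. A quasi-likelihood model over all 18 libraries (edgeR 4.0.16, limma 3.58.1, R 4.3.3, 12 residual degrees of freedom, common biological variation 8.55%) gave fold changes, standard errors and Benjamini-Hochberg adjusted p-values over all 5630 genes, called under 0.05. The script was tested on simulated data. Gene names, positions and sequences came from RefSeq R64, where 5633 IDs matched by locus tag.

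The 10 genes and the 5 lists were chosen with earlier results of these data known. Named list genes were the 4 per list with the lowest adjusted p in rad6Δ against WT, and genes like INO1 the 5 with the highest r. Deviations of same-numbered libraries correlated from -0.2 to 0.285 over the 9 comparisons. In P47T against rad6Δ alone every pair exceeded 0.1 (0.194 to 0.208), so numbers may pair the libraries there. The values given for that comparison come from the fit without a replicate block. That block was run as an alternative. Alternatives were library totals, DESeq2 size factors, no filter, DESeq2 1.42.0, a replicate block, the compared strains alone, rlog, and leaving out each library.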

Additional observations from a re-analysis of the deposited data

How the results depend on the processing

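The direction and call of the 9 tested genes were kept in the 9 comparisons with DESeq2 size factors, no filter, DESeq2 and the replicate block. In P47T against rad6Δ 8 of 9 genes were called both with the replicate block and without it. With library totals alone the median over all genes was -0.114 in bre1Δ and -0.128 in P47T, against 0.001 and -0.011 with TMM, and INO1 changed by -1.75 in bre1Δ, -0.35 in P47T and -0.135 in E49K. The rlog difference of INO1, a shrunken scale by construction, was -1.75 in rad6Δ, -0.95 in bre1Δ, -0.72 in P43L, -0.80 in rad6Δ against bre1Δ, and 1.03, 1.61 and 1.70 in P43L, P47T and E49K against rad6Δ. As libraries were left out, INO1 ran from -1.26 to -1.10 in P43L against WT and from 2.17 to 2.36 in P43L against rad6Δ, and the other genes called numbered 1 to 2 in P43L and 1 to 2 in P47T against WT. In P47T 3 were called with library totals (CHO2 and PSD1 added) and 2 with those strains alone (OPI3 added, adjusted p = 0.036). Library totals also called INO2 in bre1Δ (adjusted p = 0.0148) and SNA3 in P47T, ended the CHO2 call in rad6Δ against bre1Δ (adjusted p = 0.0723) and the bre1Δ calls of ARP8 and JEM1, and raised the bre1Δ calls of the fatty acid list to 10 from 4. Over all genes library totals gave 1699 falls in bre1Δ and 1297 in P47T, against 1244 and 770 with TMM. DESeq2 called 19 of the 74 list genes in P43L, against 10 by edgeR. Over all genes it called 827 there, against 683 by edgeR. Values near 0 turned sign. With library totals these were CHO2 in bre1Δ (-0.105), ITR1 (-0.074) and CHO1 (-0.048) in P47T, CHO1 (-0.045) and OPI1 (-0.026) in E49K, OPI1 in rad6Δ against bre1Δ (0.056), and VPS35 (-0.098) and DAS1 (-0.095) in bre1Δ. As libraries were left out they were CHO2 (-0.052 to 0.071), VPS35 (-0.056 to 0.093), SNA3 (-0.144 to 0.034) and DAS1 (-0.021 to 0.070) in bre1Δ, OPI3 in P43L (-0.018 to 0.188) and E49K (-0.012 to 0.194), CHO1 (-0.017 to 0.052) and OPI1 (-0.033 to 0.083) in E49K, SNA3 (-0.071 to 0.001) and DAS1 (-0.049 to 0.135) in rad6Δ, and OPI1 in rad6Δ against bre1Δ (-0.117 to 0.015). The cause was not tested. Depth limits INO2 most, with 85 reads in its lowest library.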
